A study of Mus musculus with 7 samples.

Results

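Compact H3K27me3 regions are stretches of the mouse autosomes under 30 kb in which every one of 7 livers had at least 1 called island of the mark. They were chosen by the deposited islands themselves: by merging overlapping or touching islands of the 7 livers and keeping merged regions that were shorter than 30 kb and held an island in each list. Of 17394 merged regions in all, 762 met this rule. They were 762 of the 6616 autosomal regions with an island in all 7 livers, and 762 of the 7884 autosomal regions under 30 kb. The islands of all livers chose these regions, so their presence in every liver and their short width are descriptions and were not tested. All coordinates are in mm9, the build in the submitters' processing notes. The gene table and promoter sequences at hand were of GRCm38, coordinates were not converted between builds, and no gene or sequence was assigned to a region.

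The livers came from male CD-1 mice, an outbred stock, aged 7 weeks. An injection gave them either the vehicle (1% DMSO in corn oil) or TCPOBOP in it at 3 mg/kg. Tissue was taken 27 h later, 3 vehicle and 4 TCPOBOP livers entered the lists, and each list came from chromatin of a single frozen liver. TCPOBOP is an agonist of CAR, the constitutive androstane receptor, which in hepatocytes turns on genes for metabolising drugs. No genetic change was named for either group. Whole liver holds hepatocytes together with endothelial, immune and bile duct cells, and a mark present in a part of the cells cannot be told apart from a weaker mark in all of them.

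H3K27me3 is histone H3 trimethylated at lysine 27. It is deposited by Polycomb repressive complex 2, whose catalytic subunit is EZH2 or EZH1, and is read by Polycomb repressive complex 1 through chromobox proteins. In differentiated tissues the mark lies over genes that are kept silent, both as wide domains and as narrow stretches around CpG-rich promoters. The caller SICER was built for such diffuse marks: it scores windows, here of 400 bp, and joins them across gaps of up to 2400 bp into islands. An island carries a score, the authors' own value, which grows with its length and with the reads of the library.

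The lists held between 14167 islands in vehicle replicate 1 and 20550 in TCPOBOP replicate 1. The files give no read numbers, so the depth behind a value is not stated here and no counting interval was computed. Vehicle replicate 1 stood apart, with the widest islands (median 31.2 kb against 20.8 to 24.4 kb in the other livers) and the highest lowest score (100.7 against 66.6 to 79.4). Vehicle replicate 2 and TCPOBOP replicate 2 also stood apart from the other livers. They had the highest median scores per window over all islands, 3.02 and 3.05 against 2.56 to 2.79 elsewhere. The comparisons of cover, edges and relative scores between the groups are given with and without these libraries where that moves them.

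The compact regions were spread over all 19 autosomes. Their widths ran from 6.8 to 29.6 kb with a median of 24 kb, and 179 of them (23.5%) were under 20 kb. In 705 of 762 (92.5%) every liver had a single island, whereas 879 of the 5854 longer shared regions (15%) did. The width limit leaves little room for more than 1 island, since islands of a list lay at least 2.8 kb apart. Their median widths were 20.8 to 31.2 kb. The contrast thus follows in part from the rule and was not tested. Chromosome 7 held the most, 70, followed by chromosome 2 with 63 and chromosome 4 with 58, and chromosome 19 the fewest, 18. Set against all shared regions of the same chromosome, compact ones made up between 8.82% on chromosome 19 and 15.3% on chromosome 7. Chromosomes 4 and 10 were near the upper end, at 14.9% and 14.4%.

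The spacing of compact regions varied widely. The next region shared by all 7 livers lay within 20 kb of 371 of 762 (48.7%) and farther than 100 kb from 194 (25.5%). Among longer shared regions the shares were 53.5% and 20.2%. The distance to the next region with an island in all 7 livers, edge to edge, had a median of 21.8 kb and quartiles of 5.2 and 105 kb. For longer shared regions the median was 16 kb. The nearest shared neighbour was a longer region for 646 compact regions (84.8%), with a median width of 68.4 kb, and another compact region for 116. The share of longer neighbours was near that of longer regions among all autosomal shared regions, 5854 of 6616. A neighbour lay within 5 kb of 184 compact regions (24.1%), and no shared region lay within 1000 kb of 24 of them (3.15%). Among longer shared regions 73 of 5854 (1.25%) were as isolated. Compact regions thus lay at distances from within 5 kb to over 1000 kb of the next shared region.

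Counted to shared regions alone, the most isolated compact region was chr18:3488401-3516800, 3478 kb from the next. Of this 28.4 kb region, islands covered 73.2%, 42.3% and 50.7% in the vehicle livers and 49.3%, 71.8%, 56.3% and 52.1% in the TCPOBOP livers. The groups overlapped, with vehicle replicate 1 and TCPOBOP replicate 2 highest. The others by distance were chr5:84836001-84862400 at 3326 kb, chr7:13625601-13638800 at 2806 kb, and a pair on chromosome 14, chr14:109304801-109325200 and chr14:112068801-112093600, each 2744 kb from the other. The last of these was also dense. Its score per window was between 2.14 and 3.58 times the median of the liver's own list in all 7 livers. Merged regions found in fewer livers lay nearer to these isolated regions. The distance was 41.2 kb on chromosome 18, 958.4 kb on chromosome 5, 205.2 kb on chromosome 7 and 22.8 kb for chr14:109304801-109325200. At the other extreme, 3 pairs of compact regions lay within 1.6 kb of each other. They were chr15:100946001-100973600 with chr15:100974001-101003200, 0.4 kb apart, chr3:96196001-96220800 with chr3:96221601-96250800, 0.8 kb apart, and chr11:89772001-89786800 with chr11:89788401-89813200, 1.6 kb apart. Within a list the smallest gap between islands was 2.8 kb, so such pairs were separated in each liver by more than the gap between the merged regions. The chromosome 3 pair was dense on both sides, with relative scores of 2.38 to 4.02 and 2.09 to 3.36 over the 7 livers.

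The edges of compact regions differed between livers by several kb. The first island start differed between the 7 livers by a median of 4.8 kb and the last island end by 5.0 kb. Added together the ranges had a median of 11.4 kb, which was 50% of the width of the region. Both edges lay within 2 windows (800 bp) in 11 of 762 regions (1.44%), and at least 1 edge did in 162 (21.3%). In 89 regions an edge was that close while the opposite edge differed by over 5 kb. The stretch under islands of all 7 livers had a median of 10.8 kb. In 7 regions no base was under islands of all 7. For a pair of livers, 45.2% to 52.3% of the 1524 edges lay within 2 windows, with a mean of 48.4% over 9 pairs given the same treatment and 48.9% over 12 pairs given different ones.

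**Figure D1:**
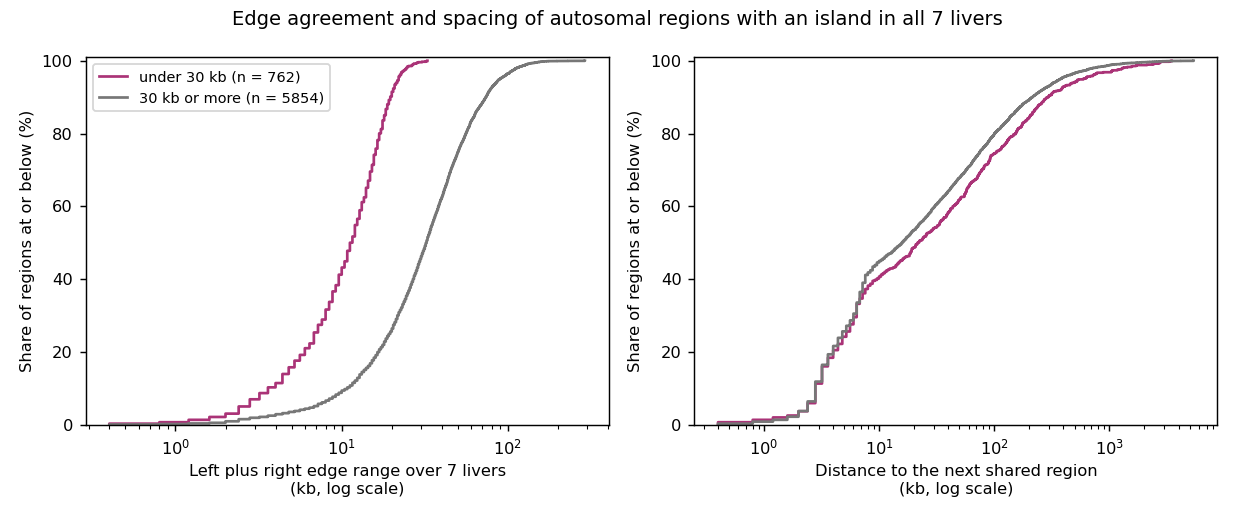
Cumulative share of regions (y axis, %) by the sum of the left and right edge ranges over 7 livers (left panel, kb, log scale) and by the distance to the next shared region (right panel, kb, log scale), for the 762 compact regions and the 5854 longer shared regions. The compact curve lies to the left for edges (median 11.4 against 32.4 kb), which the width limit bounds, and slightly to the right for spacing (median 21.8 against 16 kb).

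More of the edges facing a nearby neighbour lay close together in all livers. The part of the merging in this pattern was not tested. Where the next merged region of any kind was up to 4 kb away, 40 of 274 edges (14.6%) lay within 2 windows in all livers. Where it was over 4 and up to 10 kb away, 65 of 338 (19.2%) did. Where it was over 10 and up to 50 kb away, 43 of 428 (10.0%) did, and where it was over 50 kb away, 25 of 482 (5.19%) did. For longer shared regions the shares were 7.84%, 7.48%, 2.94% and 1.56%. This is a description across edges, many of which share a region, and was not tested.

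The 5 compact regions whose edges differed least lay within 7.2 kb of another shared region. In chr5:68380801-68406400, 25.6 kb wide, the start was the same in all 7 livers, and only TCPOBOP replicate 1 ended 1 window earlier, at 98.4% cover against 100% in the other 6. In chr2:70073201-70101200, 28 kb wide, cover was 98.6% or 100% in every liver. The 13.2-kb region chr16:38721601-38734800 had 93.9% to 100% cover, and the 10-kb region chr13:95734001-95744000 had 96.0% to 100%. In chr7:80327201-80356400 the outer edges were within 1 window, but TCPOBOP replicate 2 had 87.7% cover against 97.3% to 100% in the others. These regions were picked for the agreement of their edges over all 7 livers, so agreement in both groups was fixed by the choice. None was among the densest 8, with median relative scores of 1.22 to 2.16.

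At the other end, edges differed most in chr1:39012401-39040000, by 17.6 kb on the left and 15.2 kb on the right. Vehicle replicate 2 had an island of 10 kb in its right part, while vehicle replicate 3 and TCPOBOP replicates 3 and 4 had spans of 12.4 to 13.6 kb in its left part. TCPOBOP replicate 2 covered all of it. In chr12:5717201-5746000 and chr13:103726401-103754000 the sum of the ranges was 32.0 and 30.4 kb, and, as in the chromosome 1 region, no base was under islands of all 7 livers.

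**Figure D2:**
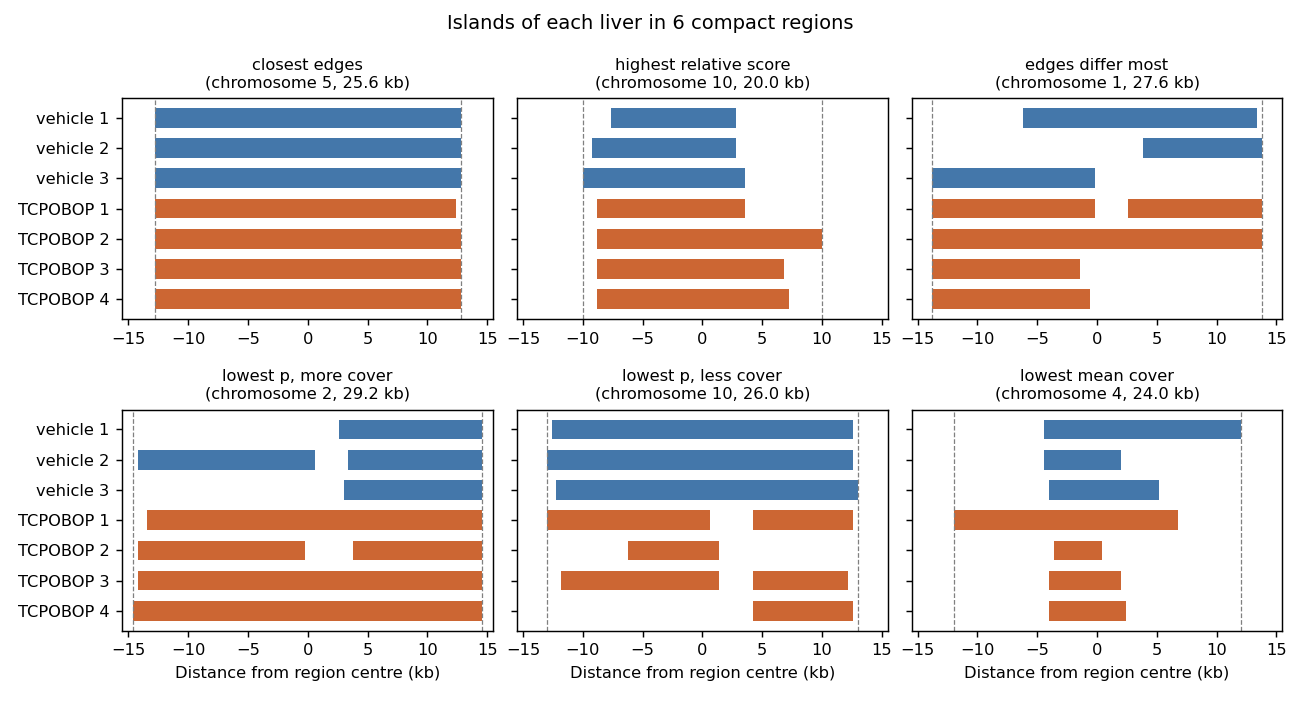
Islands (bars) of each liver in 6 compact regions, as distance from the centre of the merged region in kb, with dashed lines at its ends; vehicle livers are blue and TCPOBOP livers orange. The 25.6-kb region on chromosome 5 has nearly the same ends in all livers, whereas in the 27.6-kb region on chromosome 1 no base is under islands of all 7.

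Compact regions found in every liver carried dense signal for their list. Scores per window were divided by the median score per window of all islands in the same list, since raw scores depend on the library. By this relative score the median compact region stood at 1.37, with quartiles of 1.09 and 1.85, and the longer shared regions at 1.11. In 411 of 762 compact regions (53.9%) the relative score was above 1 in all 7 livers, and in 8 it was below 1 in all 7. A share of this is fixed by the calling, because a short island reaches the lowest score of its list only if its windows score high. Regions under 15 kb had a median relative score of 2.04 and a lowest of 1.17, and those of 25 kb or more 1.20 and 0.687. In vehicle replicate 1, the list with the highest lowest score, the summed score was below 2 times that lowest score in 605 of 762 regions (79.4%), against 34.5% to 46.5% in the other lists. Many compact regions thus stood near the limit of calling in at least 1 liver.

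Among all autosomal regions under 30 kb, the relative score was higher the more livers had an island. Its median was 0.728 in the 3184 regions found in 1 liver, 0.895 in the 602 found in 4 and 1.09 in the 457 found in 6. Regions with a relative score of 3 or more made up 5.25% of those in all 7 livers (40 regions) and 0.660% of those in 1 liver (21 regions). The number of livers was part of the rule, so no test was made of this order.

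**Figure D3:**
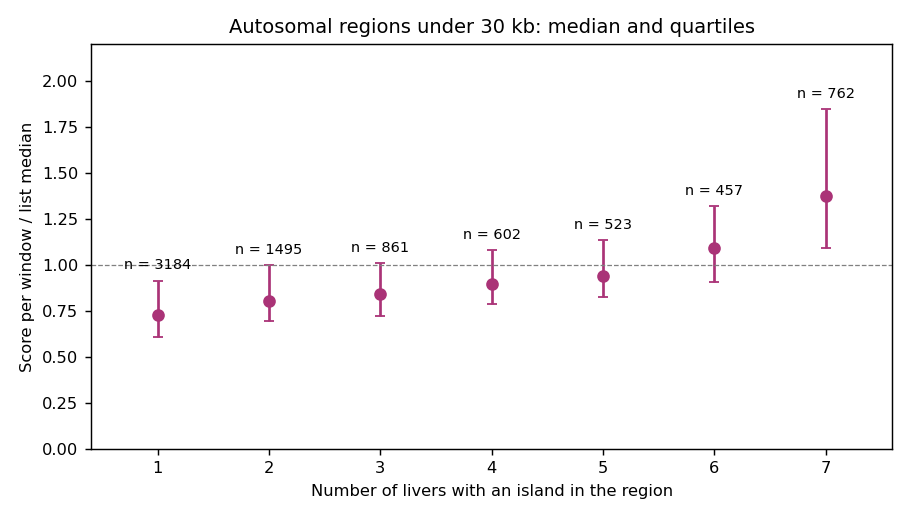
Relative score (score per window divided by the median of the list, y axis) of autosomal regions under 30 kb by the number of livers with an island (x axis); points are medians over regions and bars the quartiles. The median rises from 0.728 for 1 liver to 1.37 for all 7.

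The densest compact region was chr10:126960001-126980000, 20 kb wide. Its score per window was 5.70, 12.5 and 6.50 times the list median in the vehicle livers and 6.40, 6.50, 5.94 and 6.08 times in the TCPOBOP livers. It ranked at or above the 99.85th percentile of islands in every list, and vehicle replicate 2 stood above the other 6 livers, which lay between 5.70 and 6.50. A further compact region with a median relative score of 3.62, chr10:126940801-126954800, lay 5.2 kb to its left. In chr7:52657201-52684800 the vehicle livers had relative scores of 3.80, 6.93 and 3.68 and the TCPOBOP livers of 5.29, 6.85, 4.42 and 6.21. In chr17:23812401-23822800, only 10.4 kb wide, the vehicle livers had 3.93, 5.87 and 4.38 and the TCPOBOP livers 5.12, 6.78, 4.85 and 5.70. The groups overlapped in all 3 of these regions.

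The other 5 of the densest 8 were chr8:72889601-72913200, chr7:20096801-20114400, chr4:41669601-41686000, chr2:25428801-25446000 and chr8:73001201-73027600, with median relative scores of 5.21, 5.20, 5.00, 4.96 and 4.93. The chromosome 8 regions lay 88.0 kb apart and were each other's nearest shared region. That from 73001201 kept its edges within 1.6 kb on the left and 1.2 kb on the right, with 90.9% to 98.5% cover. The chromosome 2 region was the opposite: its islands spanned 5.2 to 8.4 kb in 6 livers and 14.8 kb in TCPOBOP replicate 2, so that cover was 30.2% to 48.8% and 86.0%. The 40 regions with a relative score of 3 or more had a median width of 18.2 kb, and chromosomes 9 and 17 held the most, 5 each.

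**Figure D4:**
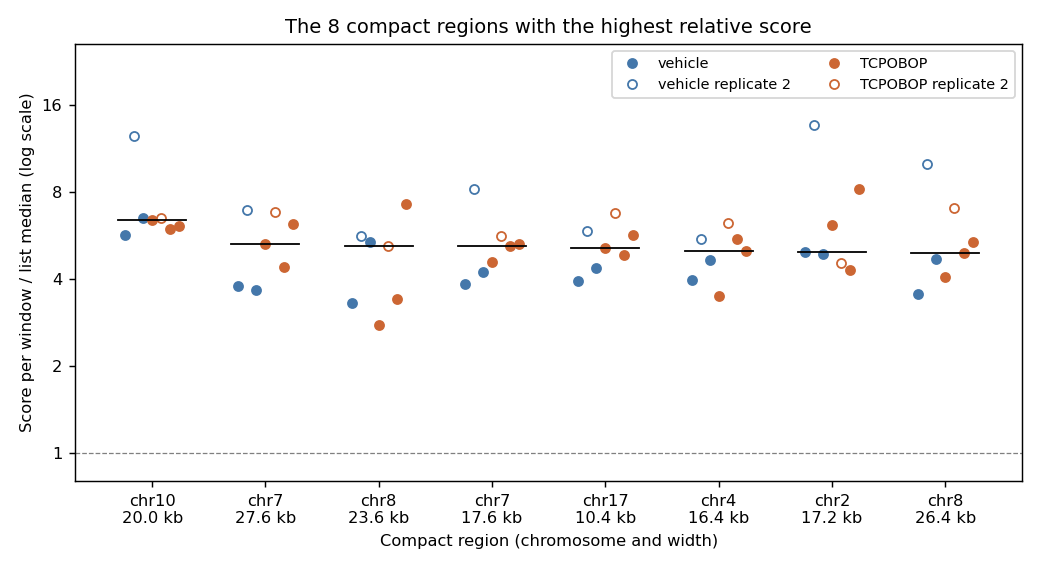
Score per window divided by the list median (y axis, log scale) in each liver for the 8 compact regions with the highest median over the 7 livers (black bars); open circles are the libraries numbered 2. All points lie at 2.79 or more, and vehicle replicate 2 reaches 12.5 in the chromosome 10 region and 13.6 in the chromosome 2 region.

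The libraries numbered 2 gave the highest relative score in most of the dense regions. Vehicle replicate 2 was highest in 14 of the 40 and TCPOBOP replicate 2 in 14. Their median relative scores over the 40 were 4.58 and 4.94, against 2.90 to 3.71 in the other livers. The ranks of relative scores over the 762 regions were also most alike in these 2 livers, with a Spearman rho of 0.827. Across the other 20 pairs of livers rho ran from 0.590 to 0.742. All pairs share the same regions, and rho over them is given as a description. Treatment did not order it, with means of 0.694 over pairs within a group and 0.699 over pairs between groups.

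Mean cover of the compact regions differed between vehicle and TCPOBOP by less than the spread between livers. The mean fraction of a compact region under islands was 83.2%, 77.5% and 76.9% in vehicle replicates 1 to 3. It was 75.1%, 75.7%, 78.3% and 78.3% in TCPOBOP replicates 1 to 4. Vehicle replicate 1 was above all other livers, and the rest of the vehicle livers lay within the range of the TCPOBOP livers. The group means were 79.2 ± 3.47% (SD, n = 3) and 76.9 ± 1.72% (SD, n = 4), a difference of -2.33 percentage points, smaller than the pooled spread between livers of 2.56. The difference was -0.333 when vehicle replicate 1 was left out and -2.81 when both libraries numbered 2 were. Compact regions covered from end to end made up 8.62 ± 1.52% with vehicle and 6.14 ± 1.76% with TCPOBOP. This difference was -2.48 percentage points, and -1.67 without vehicle replicate 1. Vehicle replicate 1 set the outermost left edge, alone or with others, in 241 regions and the outermost right edge in 247, the most of any liver. The part of this library's wider islands in these differences was not tested beyond leaving it out.

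**Figure D5:**
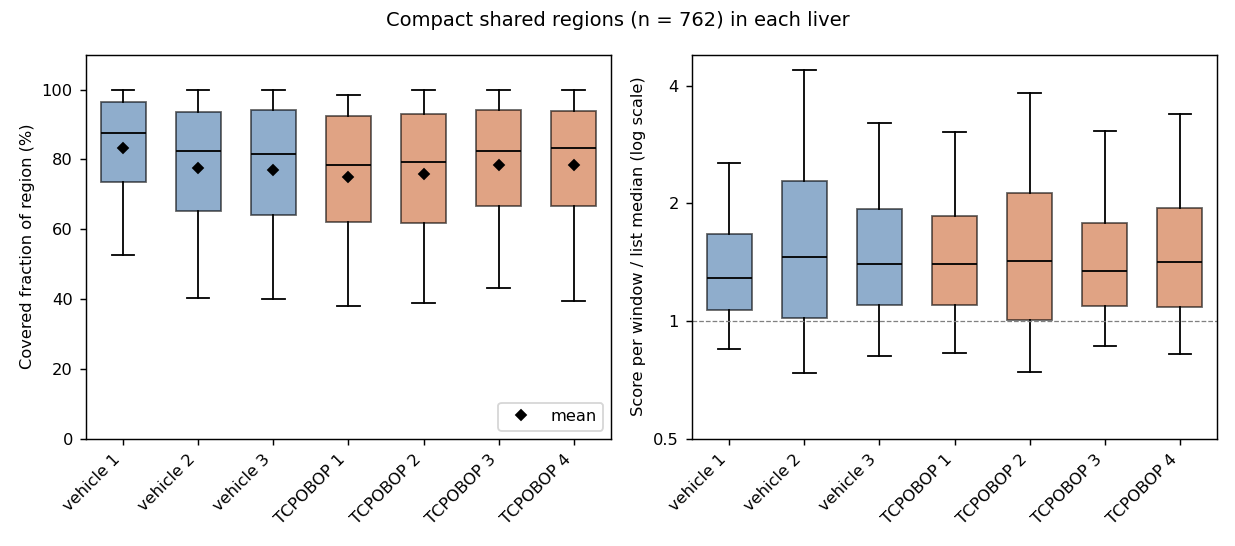
Covered fraction of the region (left, %) and score per window divided by the list median (right, log scale) over the 762 compact regions in each liver; boxes show the median and quartiles, whiskers the 5th and 95th percentiles, diamonds the mean. Vehicle replicate 1 has the highest mean cover, 83.2%, and the lowest median relative score, 1.29.

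Region by region, 0 of the 762 compact regions passed the test for a change of cover. The covered fraction was compared with limma over all 13988 regions with an island in at least 2 livers, and 0 of these passed either (0%; Benjamini-Hochberg adjusted p under 0.05). The lowest adjusted p of a compact region was 0.730. The median difference over the compact regions was -1.92 percentage points, beside 0.592 over all regions tested. All regions tested include ones without an island in some livers, unlike the compact regions. Over the 6624 regions tested that had an island in all 7 livers, the median was -0.550. The compact median was -0.877 without vehicle replicate 1 (all regions 0.980) and -0.980 without TCPOBOP replicate 1 (0.775). Without vehicle replicate 3 it was -2.98 (1.40). Centring each liver on its mean cover, which moved the median of all regions to -2.08, gave -4.59. At an unadjusted p under 0.05, 20 compact regions (2.62%) had more cover with TCPOBOP, against 2.42% of all regions tested, and 26 (3.41%) had less, against 1.45%. These counts were not stable. They were 33 and 13 without vehicle replicate 1, 29 and 46 without TCPOBOP replicate 3, 22 and 41 without TCPOBOP replicate 4, and 11 and 17 without both libraries numbered 2. With all livers, centring on each liver's mean cover gave 10 and 47, the arcsine square root of the fraction 15 and 29, and limma without trend and robust variance 10 and 9. Over all regions tested, 542 had an unadjusted p under 0.05 in the main fit. The number was 514 without vehicle replicate 1, 591 without TCPOBOP replicate 3 and 550 without TCPOBOP replicate 4. Without both libraries numbered 2 it was 663 of 13796. Centring gave 602, the arcsine square root 509, and limma without trend and robust variance 712. In that last fit the compact share, 19 of 762, was below the share over all regions, 712 of 13988. In the main fit it was above, 6.04% against 3.87%. Fitted on regions with an island in all 7 livers, 22 compact regions had more cover and 31 less, 53 of 762 against 240 of 6624. With regions of any liver it was 30 and 42, 72 of 762 against 641 of 17394. The median standard error of a difference in the main fit was 11.0 percentage points for compact regions and 24.0 for all. The rule keeps an island in every liver, so a complete loss could not be among the compact regions.

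Cover did not overlap between the groups in 30 compact regions. In 18 (2.36%) every TCPOBOP liver was above every vehicle liver, against 1.8% of all regions tested, and in 12 (1.57%) every TCPOBOP liver was below, against 1.65%. These shares are near those over all regions.

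The lowest p belonged to chr2:26698001-26727200, 29.2 kb wide. Its cover was 41.1%, 89.0% and 39.7% with vehicle and 95.9%, 84.9%, 98.6% and 100% with TCPOBOP. Vehicle replicates 1 and 3 had an island in the right part alone, whereas vehicle replicate 2 lay among the TCPOBOP livers. The difference was 38.2 percentage points (SE 11.0, limma adjusted p = 0.730). The right end of this region was the same in all 7 livers.

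In chr7:135242401-135266800 the groups did not overlap. Cover was 73.8%, 85.2% and 63.9% with vehicle and 100%, 98.4%, 100% and 86.9% with TCPOBOP, a difference of 22.0 percentage points (SE 6.36, limma adjusted p = 0.730). In the dense region chr17:36321601-36343200, cover was 29.6%, 33.3% and 94.4% with vehicle and 92.6%, 100%, 94.4% and 85.2% with TCPOBOP, so that vehicle replicate 3 lay with the TCPOBOP livers (difference 40.6 percentage points, SE 12.8, limma adjusted p = 0.796). Its relative scores were 5.87, 3.37 and 2.17 with vehicle and 2.97 to 3.66 with TCPOBOP. The livers with the shorter span in vehicle thus had the denser windows. In chr11:9109601-9131600 cover was 85.5%, 61.8% and 81.8% with vehicle and 87.3% to 98.2% with TCPOBOP (difference 18.6 percentage points, SE 6.35, limma adjusted p = 1), and the groups did not overlap.

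The remaining region of the lowest 5 had less cover after TCPOBOP. In chr10:4729201-4755200 islands covered 96.9%, 98.5% and 96.9% with vehicle and 84.6%, 29.2%, 81.5% and 32.3% with TCPOBOP (difference -40.5 percentage points, SE 13.4, limma adjusted p = 0.975). The vehicle livers each had a nearly full island, while TCPOBOP replicates 2 and 4 had islands in different parts of the region, spanning 7.6 and 8.4 kb. TCPOBOP replicates 1 and 3 each had 2 islands. The second began 4.2 kb right of the centre, as did the island of replicate 4. The island of replicate 2 ended 1.4 kb right of the centre, as did the first of replicate 3. The groups were apart, and the spread among TCPOBOP livers (SD 30.3%) was much larger than among vehicle livers (SD 0.888%).

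Edges of the compact regions did not pass the test for a shift either. The inset of the first island start and of the last island end from the ends of the merged region was compared as log2(windows + 1) with limma over all shared regions in which it varied. For the left edge, 0 of 748 compact regions and 0 of 6591 regions in all (0%) had an adjusted p under 0.05, and 13 compact regions (1.74%) had an unadjusted p under 0.05, against 3.69%. Of these, 8 had a larger inset with TCPOBOP (1.07%, against 1.53%) and 5 a smaller one (0.668%, against 2.15%). Leaving out 1 liver gave 4 to 13 larger and 3 to 8 smaller, with 4 and 3 without vehicle replicate 3, 9 and 3 without TCPOBOP replicate 3 and 13 and 8 without TCPOBOP replicate 4. Untransformed insets gave 4 and 4, and limma without trend and robust variance 1 and 3. Over all regions, 243 had an unadjusted p under 0.05 in the main fit and 245 to 315 without 1 liver. Untransformed insets gave 202 and limma without trend and robust variance 256. For the right edge the numbers were 0 of 756 and 0 of 6598 (0%), and 24 (3.17%) against 3.9%. Here 16 had a larger inset (2.12%, against 1.68%) and 8 a smaller one (1.06%, against 2.21%). This balance turned over without vehicle replicate 1, with 6 larger and 12 smaller. It was 7 and 10 without vehicle replicate 2, 10 and 11 without vehicle replicate 3, 8 and 8 without both libraries numbered 2, and 4 and 13 for untransformed insets. Over all regions, 257 had an unadjusted p under 0.05 for the right edge in the main fit. The number was 232, 289 and 261 without vehicle replicates 1, 2 and 3. It was 252 without both libraries numbered 2 and 213 for untransformed insets. The lowest adjusted p of a compact region was 0.786 on the left and 0.914 on the right.

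The lowest left p was that of chr1:39012401-39040000, the region with the least agreement of edges. Its islands began at the outer end in vehicle replicate 3 and in all 4 TCPOBOP livers, and 7.6 and 17.6 kb further in for vehicle replicates 1 and 2 (difference -3.27 on the log2 scale, SE 1.00, limma adjusted p = 0.786). In chr11:16934801-16956400 the vehicle islands began within 1.2 kb of the end and the TCPOBOP islands 6.4 to 14.8 kb inside it (difference 3.95, SE 1.57, limma adjusted p = 0.913). The groups did not overlap there. Cover was 92.6% to 94.4% in the vehicle livers and 50%, 68.5%, 59.3% and 25.9% in the TCPOBOP livers, which did not pass the test (limma adjusted p = 1). In chr2:153863601-153890800 the 3 vehicle islands began at the end, and the TCPOBOP islands 0 to 11.6 kb inside it, with TCPOBOP replicate 3 at the end as well (difference 2.70, SE 1.08, limma adjusted p = 0.913).

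On the right, chr1:156753201-156780000 had the lowest p. All 4 TCPOBOP livers and vehicle replicate 1 reached its outer end, and vehicle replicates 2 and 3 stopped 11.2 and 3.6 kb short (difference -2.73, SE 0.883, limma adjusted p = 0.914). In chr1:139575201-139604000 the vehicle livers and TCPOBOP replicate 1 reached the end, and the other TCPOBOP livers stopped 5.6 to 11.2 kb short (difference 3.31, SE 1.26, limma adjusted p = 0.914). In chr18:74044001-74073200 only vehicle replicate 3 stopped short, by 11.6 kb (difference -1.64, SE 0.651, limma adjusted p = 0.914). In these 3 regions at least 1 vehicle liver shared its end with TCPOBOP livers.

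Relative scores of the compact regions did not separate the treatments. The median over the 762 regions was 1.29, 1.46 and 1.40 in the vehicle livers and 1.40, 1.42, 1.34 and 1.42 in the TCPOBOP livers. The group means were 1.38 ± 0.0869 (SD, n = 3) and 1.40 ± 0.0374 (SD, n = 4), and the difference of 0.0112 turned to -0.0359 without vehicle replicate 1. It was 0.0497 without vehicle replicate 2 and 0.0404 without both libraries numbered 2. Scores are set within a list, so these values are side by side and no test was made. Within their own lists the compact regions stood at median percentiles of 75.5 to 80.7.

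The shortest compact regions were chr9:35378401-35385200 at 6.8 kb, chr2:81889201-81898000 at 8.8 kb and chr13:95734001-95744000 at 10 kb. In the chromosome 9 region the islands spanned 6.0, 4.8 and 5.2 kb with vehicle and 3.6, 4.4, 4.4 and 6.8 kb with TCPOBOP, at relative scores of 2.21 to 3.23. In the chromosome 2 region they spanned 6.0, 6.0 and 8.4 kb with vehicle and 8.0, 4.0, 6.8 and 7.2 kb with TCPOBOP, and no other shared region lay within 1580 kb. The lowest mean cover belonged to chr4:101380401-101404400, at 68.3%, 26.7% and 38.3% with vehicle and 78.3%, 16.7%, 25% and 26.7% with TCPOBOP. Vehicle replicate 1 and TCPOBOP replicate 1 held the wide islands there, and their relative scores, 1.37 and 1.04, were the lowest of the 7. The same livers were the widest in chr2:136201201-136224400, with 62.1% and 67.2% cover against 20.7% to 56.9% in the others.

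The limit of 30 kb cut through a continuous range of widths. The 64 regions of 29.2 or 29.6 kb had a mean cover of 75.9%, a median relative score of 1.14 and a median sum of edge ranges of 17.6 kb. The 60 shared regions of 30 or 30.4 kb just outside had 73.5%, 1.37 and 17.0 kb. Cover and edge ranges were thus close on both sides, whereas the median relative score was higher just outside.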

How the data were processed

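Each of 7 livers gave 1 library of chromatin precipitated with an H3K27me3 antibody. Build mm9, SICER 1.1 and Bowtie2 2.3.2 are named in the submitters' processing notes; the window of 400 bp, gap of 2400 bp and E-value of 100 are in the names of the deposited lists. Input control, filters and treatment of duplicate reads are not given in the sources used here. The deposited values are 1 list of islands for each liver and a score for each island, as the authors' caller gave it. Islands were merged where they overlapped or touched. Cover and edge insets (log2 of windows + 1) were compared with limma 3.58.1 (R 4.3.3) with trend and robust variance, Benjamini-Hochberg adjustment and a threshold of 0.05. Cover was fitted on regions with an island in at least 2 livers, and edges on shared regions whose inset varied. The fits were also run on simulated data with normal errors, and the outcome is not given here. Python 3.11.15, NumPy 2.4.6, SciPy 1.17.1 and pandas 2.3.3 did the rest. Each liver is an animal of its own. Members, lists and tests were chosen with earlier results of these data known. Named regions are the 8 densest, the 5 and 3 with least and most different edges, those with the lowest limma p (5 for cover, 3 for each edge), the 5 most isolated, the 3 closest pairs, the 3 shortest, and the 3 with the lowest cover. chr10:126940801-126954800 was added after its values were seen. Alternatives were each liver left out, the replicate number as a block, other limits, filters, scales and variance settings.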

Additional observations from a re-analysis of the deposited data

Results flagged for a closer look

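Of 88 measures compared over the 4 TCPOBOP livers, 12 showed 1 value set apart by a wide gap. A chance rate of about 1 in 20 cannot be set beside this, because most of the measures came from named regions picked on these same data. Many of these values also move in steps of 1 window. TCPOBOP replicate 1 had several islands in 3.54% of compact regions against 1.31% to 1.57% in the others. Its cover was 98.4% against 100% in chr5:68380801-68406400, 78.3% against 16.7% to 26.7% in chr4:101380401-101404400 and 76.7% against 89.0% to 90.4% in chr3:96221601-96250800. TCPOBOP replicate 2 had 98.5% cover against 90.9% in chr8:73001201-73027600, 87.7% against 98.6% to 100% in chr7:80327201-80356400, 87.3% against 96.4% to 98.2% in chr11:9109601-9131600 and 80.4% against 39.2% to 43.1% in chr14:109304801-109325200. TCPOBOP replicate 4 had 26.4% cover against 93.1% to 98.6% in chr12:5717201-5746000 and 86.9% against 98.4% to 100% in chr7:135242401-135266800. Its relative score was 2.48 against 1.26 to 1.42 in chr11:16934801-16956400, where its island was the shortest, and 2.21 against 3.06 to 3.23 in chr9:35378401-35385200, where it was the longest.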

How the results depend on the processing

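The number of compact regions followed the choices that define them: it was 179 with a limit of 20 kb, 1458 with 40 kb, 471 where islands had to cover 50% of the region in each liver, and 463 without the lowest-scored 20% of each list. Leaving out a liver and rebuilding the regions gave 826 to 1119, highest without vehicle replicate 1. The share with both edges close was 0.656% within 1 window and 5.12% within 4, and 1.57% to 2.34% without 1 liver. The median distance was 6.8 kb to a merged region of any kind, 33.6 kb to a shared region without the lowest-scored islands, and 20.8 to 24 kb without 1 liver. For cover, limma called 13 of all regions with neither trend nor robust variance and 1 with regions of a single liver added; 0 of these were compact. In these and the other 38 refits of cover and edges, 0 compact regions were called; leaving out a liver gave 0 calls in all 3 comparisons. The mean cover difference ran from -3.46 to -0.333 percentage points and the relative score difference from -0.0359 to 0.0497 without 1 liver; undivided, the latter was 0.0831 score units. With the replicate number as a block, limma called 0 regions for cover, 0 for the left edge and 0 for the right edge. Deviations in cover had correlations of 0.0269, 0.278 and 0.0693 in same-numbered livers and of -0.174 to 0.106 in differently numbered ones. The livers numbered 2 were also highest for the left edge, 0.152, and the right edge, 0.140. In the main fits the numbers were not taken to pair the livers. Centring on each liver's mean, edge fits without trend and robust variance, and leaving out both libraries numbered 2 were added after the data were seen.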

Other observations

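In bins of 5 Mb, compact regions occupied 349 bins, with a median of 2 and at most 7 to a bin. The 4 bins with 7 lay on chromosome 2 (25 to 30 and 130 to 135 Mb), chromosome 3 (95 to 100 Mb) and chromosome 9 (20 to 25 Mb). The chromosome 3 bin had a median relative score of 2.74, the chromosome 9 bin 2.12 with 3 regions at 3 or more, and the chromosome 2 bins 1.25 and 2.11.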
